A study of Mus musculus with 8 samples.

Results

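Spast and Nav3 are host genes of microtubule regulators, and their circular RNAs (circRNAs) were followed here across 8 mouse kidney libraries. CircRNAs are closed RNA loops formed when a downstream splice site joins an upstream one. All rows whose host gene was given as Spast or Nav3 were taken, which gave 6 circRNAs of 6315 listed, 2 from Spast and 4 from Nav3. The libraries were total RNA from kidneys of C57BL/6L mice aged 8 to 10 weeks, the strain spelled as in the labels. There were 3 libraries from kidneys with unilateral ureteral obstruction (UUO), 2 from a group labelled acute-chronic (AC) and 3 from controls, which the titles call WT. The design text of the series names ischaemia/reperfusion, obstruction and sham surgery, with harvest at day 5. The labels do not say whether each library came from a separate animal, whether animals were pooled, or how the AC injury was carried out.

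Spast encodes spastin, an AAA ATPase that cuts microtubules along their length and, together with membrane-shaping proteins, remodels the endoplasmic reticulum and endosomes; mutations in its human counterpart cause hereditary spastic paraplegia. Nav3 encodes neuron navigator 3, a protein that binds growing microtubule ends and was first described in the nervous system. Microtubules carry transport between the faces of tubule epithelial cells and form the spindle of dividing cells. The tables hold circRNA counts and no linear transcripts or proteins, so none of the values below is the level of the Spast or Nav3 messenger RNA. In whole kidney, fewer cells of a type and less circRNA per cell cannot be told apart.

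The hosts were chosen because earlier results of these data called 1 Spast circRNA in UUO against control and 1 Nav3 circRNA in UUO and in AC against control. The values of those contrasts are therefore given as a description, without a test. Total counts ran from 40865 to 65145 per library, and 1 count was worth between 18.9 and 29.2 CPM (the usual per-library scale of counts, computed on the counts kept after filtering, with TMM factors). Of 6 proximal tubule markers, Lrp2 and Slc4a4 had listed circRNAs, 6 in all, with summed levels of 1197 to 1649 CPM in UUO, 1313 to 1555 CPM in AC and 1622 to 3435 CPM in control. For these the UUO and control ranges overlapped slightly, while the AC range lay below control. The 3 circRNAs of Klhl3, a distal nephron gene, summed to 355 to 677 CPM in UUO, 353 to 700.1 CPM in AC and 1985 to 2699 CPM in control. The groups overlapped for the 5 circRNAs of the podocyte gene Magi2, with sums of 76.1 to 397 CPM in UUO, 259 to 379 CPM in AC and 165 to 425 CPM in control. They also overlapped for the 3 circRNAs of the endothelial genes Flt1 and Tek, with 25.4 to 210.0 CPM in UUO, 0 to 263 CPM in AC and 94.4 to 133 CPM in control. The circRNA of the neuronal gene Syt1 was at 0 outside AC and reached 29.2 CPM in AC. Of the 4 leukocyte, the 4 fibroblast and the 2 thick limb markers, 0 had a listed circRNA. The part of cell composition in the results below was not tested.

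The Spast circRNA mmu_circ_0006994, listed under source transcript ENSMUST00000024869, had 0, 0 and 0 counts in UUO replicates 1 to 3. In AC it had 21 and 14 counts in replicates 1 and 2, and in control 4, 27 and 10 counts in replicates 1 to 3. It was therefore detected in all 5 libraries outside UUO and in 0 of 3 UUO libraries. In CPM it stood at 0 in each UUO library, at 495 and 408 in AC, and at 106, 510 and 207 in control. The means were 452 ± 61.1 CPM in AC (SD, n = 2) and 274 ± 210 CPM in control (SD, n = 3). The control libraries spread widely, and control replicate 2, the library with the most counts in all, held 27 of the 41 control counts.

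The absence from UUO was set against the depth. A count of 3, taken as the limit that 0 counts allow, was worth 23.1 CPM over the 3 UUO libraries together and between 63.0 and 76.1 CPM in 1 UUO library. The lowest library outside UUO, control replicate 1 at 106 CPM, lay above those limits, though its 4 counts carry a counting error of their own. With UUO set to that limit over its 3 libraries, the observed mean was 11.9-fold higher in control and 19.5-fold higher in AC. These bounds allow for counting error in UUO alone, and not for that in control or AC. With 1 UUO library left out the bound against AC lay between 12.4-fold and 13.6-fold, and with 1 AC library left out between 17.7-fold and 21.2-fold. In UUO against control 1.5% of the 1471 circRNAs tested were called as lower and the libraries of both groups did not overlap for 24.3%. Against control the bound was 6.84-fold without control replicate 2, and between 7.61-fold and 8.196-fold without 1 UUO library.

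**Figure D1:**
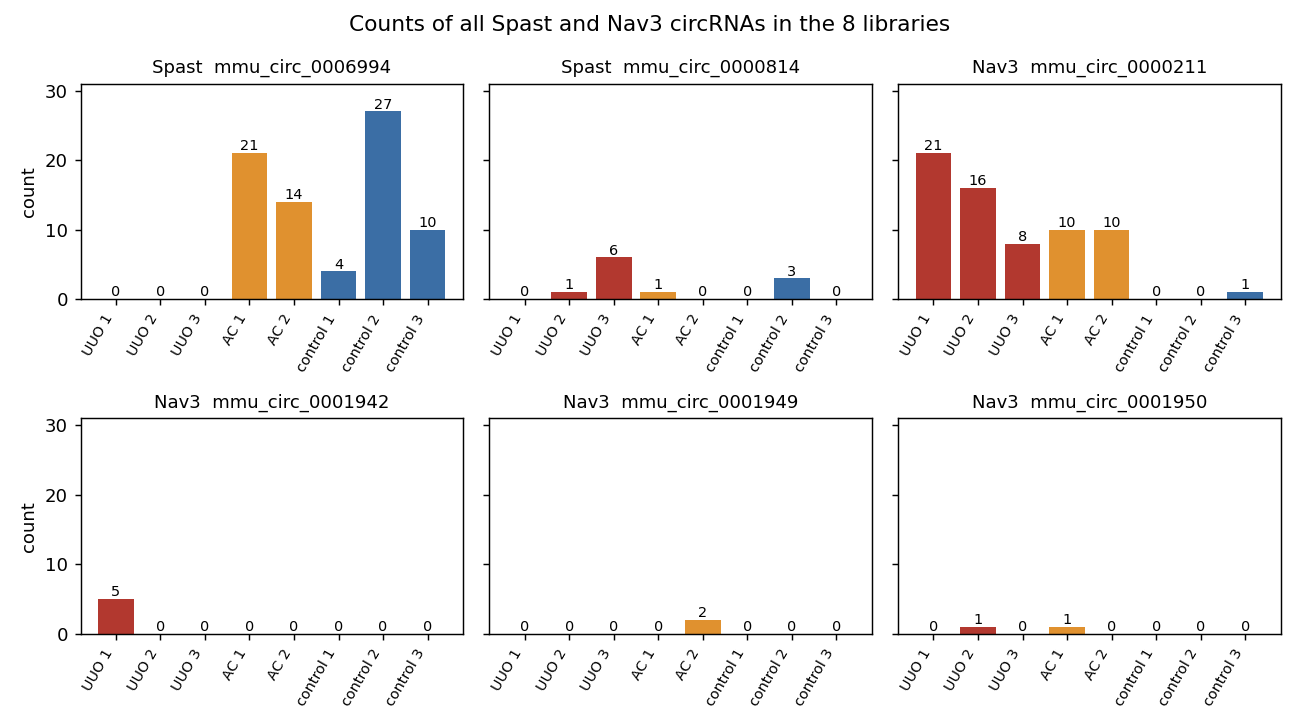
Deposited counts (y axis) of the 2 Spast and 4 Nav3 circRNAs in each library, UUO in red, AC in orange and control in blue, with the count above each bar. The Spast circRNA mmu_circ_0006994 is at 0 in the 3 UUO libraries and between 4 and 27 elsewhere, while the Nav3 circRNA mmu_circ_0000211 is between 8 and 21 in the injured libraries and at 0 or 1 in control.

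Obstruction was also set against acute-chronic injury. This contrast uses the same 3 UUO libraries that led to the choice of Spast, and the circRNA passed the filter on low counts only through both AC libraries and control replicate 2, so the values that follow are a description and not independent evidence of a difference. The UUO and AC libraries of mmu_circ_0006994 did not overlap, as was the case for 24.3% of the 1471 circRNAs tested. By edgeR's quasi-likelihood test with Benjamini-Hochberg adjustment it missed the threshold of 0.05 (adjusted p = 0.133). In that comparison edgeR called 0 of 1471 circRNAs (0%), with 82 (5.57%) at an unadjusted p under 0.05, while limma-voom called 0 and DESeq2 called 2. The Spast circRNA was among the 2 of DESeq2 (adjusted p = 0.00338), and it also passed in edgeR without a filter on low counts (adjusted p = 3.37e-04, with 4 called of 6315). Leaving out any 1 library gave edgeR adjusted p from 0.0886 to 0.562. Whether this difference passed thus depended on the tool and on the filter.

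In AC against control, which shares its controls with the contrast that led to the choice, the same Spast circRNA had overlapping libraries and a log2 fold change of 0.69 (SE 0.81), and did not pass (edgeR adjusted p = 0.769; 49 of 1471, or 3.33%, passed in either direction). The ratio of summed counts was 1.55 with a 95% interval from 0.956 to 2.49 for counting error alone. Leaving out any single library gave this contrast an edgeR adjusted p between 0.624 and 0.911. Both injuries were compared with the same 3 control libraries, so the fold changes against control are not independent of each other.

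The other Spast circRNA, mmu_circ_0000814 of source transcript NM_001162870, was scarce. It had 0, 1 and 6 counts in UUO, 1 and 0 in AC, and 0, 3 and 0 in control. With at most 6 counts in a library it did not pass the filter and was not tested, and its groups overlap. Of its 11 counts, 6 came from UUO replicate 3, so that its mean of 49.8 ± 67.0 CPM in UUO (SD, n = 3) rested on that library.

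The make-up of the Spast counts is given by group. Counts are not scaled to the length of each circle, which the sources used here do not give, so shares are shares of counts. Their intervals pool the libraries of a group and cover counting error alone. In UUO, mmu_circ_0006994 gave 0 of 7 Spast counts (exact Clopper-Pearson 95% interval 0% to 41.0%), of which 6 were in UUO replicate 3 and 0 in UUO replicate 1. In AC it gave 35 of 36 counts (97.2%, interval 85.5% to 99.9%). In control it gave 41 of 44 counts (93.2%, interval 81.3% to 98.6%). Read across both circRNAs, the UUO and control libraries were no longer apart: the Spast sum was 0, 23.4 and 126 CPM in UUO, 518 and 408 CPM in AC, and 106, 566 and 207 CPM in control. UUO replicate 3, with its 6 counts of mmu_circ_0000814, overlapped control replicate 1, while all UUO sums stayed below both AC sums.

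A test of mmu_circ_0006994 against the other Spast circRNA was possible in the fit without a filter, over 4784 circRNAs of hosts with at least 2. In UUO against AC its log2 fold change minus that of its host's average was -4.24. That value rests on the UUO libraries that led to the choice of Spast and on a group at 0 counts. Its size depends on the prior count, so it is a description and not evidence of a difference. In AC against control the difference was 0.093 (unadjusted p = 0.906 by the edgeR test within hosts). Neither passed after adjustment, and 1 of 4784 (0.0209%) passed in each of these comparisons. With 11 counts behind mmu_circ_0000814, a different course of the pair could not be shown at this depth.

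The Nav3 circRNA mmu_circ_0000211, of source transcript NM_001081035, had 21, 16 and 8 counts in UUO replicates 1 to 3. In AC it had 10 and 10 counts, and in control 0, 0 and 1. The single control count was in replicate 3. In CPM these were 533, 374 and 168 in UUO, 236 and 292 in AC, and 0, 0 and 20.7 in control. Every injured library was above every control library, and the lowest of them, UUO replicate 3, was the UUO library with the most counts in all.

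The Nav3 means were 358 ± 183 CPM in UUO (SD, n = 3), 264 ± 39.7 CPM in AC (SD, n = 2) and 6.89 ± 11.9 CPM in control (SD, n = 3). The control mean lay under the 21.6 CPM that 3 counts are worth over that group. With 1 control count the size of the increase is loosely bounded: the ratio of summed counts had a counting interval from 8.21 to 1944 in UUO and from 5.79 to 1501 in AC. In these contrasts the shares of all tested circRNAs called as higher were 2.86% and 1.9%, and the libraries did not overlap for 24.3% and 30.7% of circRNAs in UUO and AC against control.

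In UUO against AC, Nav3 mmu_circ_0000211 had a log2 fold change of 0.43 (SE 0.87). Both groups entered the choice of Nav3 as high, and both AC libraries and UUO replicates 1 and 2 carried it past the filter, so their likeness is partly set by the selection and no test is given. The libraries of both groups overlapped, with both AC values between the lowest and the middle UUO value. The ratio of summed counts was 1.33, with a 95% interval from 0.769 to 2.38 for counting error alone. The order of the Nav3 levels was thus UUO, AC and control, with the UUO and AC means closer than the spread within UUO. For Spast mmu_circ_0006994 the order was AC, control and UUO, and the AC values lay within the control range.

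**Figure D2:**
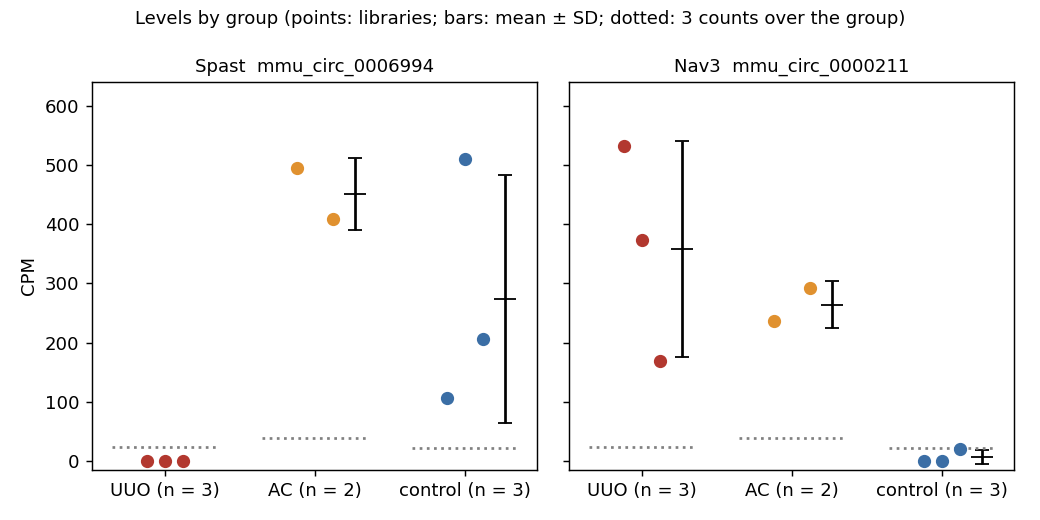
Level in CPM (y axis) of the tested Spast and Nav3 circRNAs by group. Points are libraries, bars are mean ± SD (none drawn where a group is at 0), and dotted lines mark what 3 counts over the group are worth, 23.1 CPM in UUO, 39.1 CPM in AC and 21.6 CPM in control. Spast is at 0 CPM in UUO against 452 CPM in AC and 274 CPM in control, and Nav3 is at 358 CPM in UUO and 264 CPM in AC against 6.89 CPM in control.

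The other 3 Nav3 circRNAs all came from source transcript ENSMUST00000032719 and held few counts. The circRNA mmu_circ_0001942 had 5 counts in UUO replicate 1 and 0 in the other 7 libraries. The circRNA mmu_circ_0001949 had 2 counts in AC replicate 2 and 0 elsewhere. The circRNA mmu_circ_0001950 had 1 count in UUO replicate 2 and 1 in AC replicate 1. None of the 3 had a count in a control library, and none passed the filter, so no test of them is given. With so few counts their absence from control was not informative: 3 counts over the control group, the limit that 0 allows, are more than mmu_circ_0001949 or mmu_circ_0001950 had in all libraries together.

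A single circRNA therefore made up most of the Nav3 counts in both injuries. In UUO mmu_circ_0000211 gave 45 of 51 Nav3 counts (88.2%, exact Clopper-Pearson 95% interval 76.1% to 95.6%, for counting error alone). In AC it gave 20 of 23 (86.96%, interval 66.4% to 97.2%). In control the single Nav3 count was from this circRNA, too few for a share. Summed over the 4 circRNAs, Nav3 stood at 660, 397 and 168 CPM in UUO, 259 and 350.0 CPM in AC, and 0, 0 and 20.7 CPM in control, so the sum kept the same order of groups and no overlap between injured and control libraries. In the unfiltered fit the log2 fold change of mmu_circ_0000211 in UUO against AC differed from that of its host's average by 0.031. As this circRNA gave most of the counts, the sum and the host's average largely restate it and say little of the others.

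The hosts share this dominance of 1 circRNA over all libraries. Spast mmu_circ_0006994 held 87.4% of 87 Spast counts and Nav3 mmu_circ_0000211 held 88.0% of 75 Nav3 counts. Among the 275 hosts with 2 listed circRNAs and at least 50 counts, the leading circRNA held a median of 85.3% (quartiles 68.0% and 95.8%). Among the 122 such hosts with 4 listed circRNAs the median was 65.8% (quartiles 52.4% and 75.8%), below the Nav3 value. Of 2841 named hosts, 1499 had a single listed circRNA and 462 had at least 4. The leading Nav3 circRNA and the scarce Spast circRNA were assigned to RefSeq transcripts and also carried an entry in the column for experimental evidence; the leading Spast circRNA and the scarce Nav3 circRNAs were assigned to Ensembl transcripts and had none. All 4 source transcripts belong to Spast or Nav3 in the reference annotation.

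Only mmu_circ_0006994 and mmu_circ_0000211, 2 of the 6, passed the filter on low counts, which kept 1471 of 6315 circRNAs (scaled count of at least 10 in at least 2 libraries). Spast mmu_circ_0006994 reached that level in 3 libraries, both of AC and control replicate 2, and Nav3 mmu_circ_0000211 in 4, both of AC and UUO replicates 1 and 2. Each therefore passed through groups in which it was high, so that a difference from the low group was built into the selection.

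The patterns were rare among the circRNAs tested. A total of 9 of 1471 (0.612%) had 0 counts in all 3 UUO libraries, and Spast mmu_circ_0006994 was the only 1 of these (0.068%) with a count in all 5 other libraries. At most 1 count over the 3 controls together with a count in all 5 injured libraries was found for 4 of 1471 (0.272%), namely circRNAs of Nav3, Espl1, Osmr and Mtap1s. These counts describe patterns that were defined from the Spast and Nav3 values themselves.

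Profiles most like each circRNA were found by the root mean square difference of log2 CPM, centred on the mean of 8 libraries. Because they were picked for likeness, their shared course is a description and lends the Spast and Nav3 values no support. Closest to Spast mmu_circ_0006994 was a circRNA of Frmd4b, a scaffold protein with a FERM domain (mmu_circ_0013632, difference 0.59, against a median of 1.66 over all tested). Its counts were 0, 0 and 3 in UUO, 23 and 11 in AC, and 11, 45 and 26 in control. Next came circRNAs of Ube4b, a ubiquitin chain assembly factor (mmu_circ_0011432, 0.78), and of AA415398 (mmu_circ_0011112, 0.94). Each of these 3 had lower counts in every UUO library than in either AC library, and the AA415398 circRNA also had 0 counts in control replicate 1.

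Closest to Nav3 mmu_circ_0000211 were circRNAs of Espl1, the protease separase that releases sister chromatids (mmu_circ_0000652, difference 0.46), Samd4, an RNA-binding translational repressor (mmu_circ_0000529, 0.46), and Osmr, the oncostatin M receptor (mmu_circ_0005739, 0.49). The median difference from the Nav3 profile was 1.49 over all tested. The Espl1 circRNA had 9, 16 and 12 counts in UUO, 13 and 9 in AC and 0 in each control. That of Samd4 had 51, 45 and 63 counts in UUO, 41 and 39 in AC, and 2, 6 and 7 in control. The Samd4 circRNA had more counts than that of Nav3, with each control library above 0. It was named for its likeness to the Nav3 profile, so a shared step between control and both injuries is set by that choice.

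**Figure D3:**
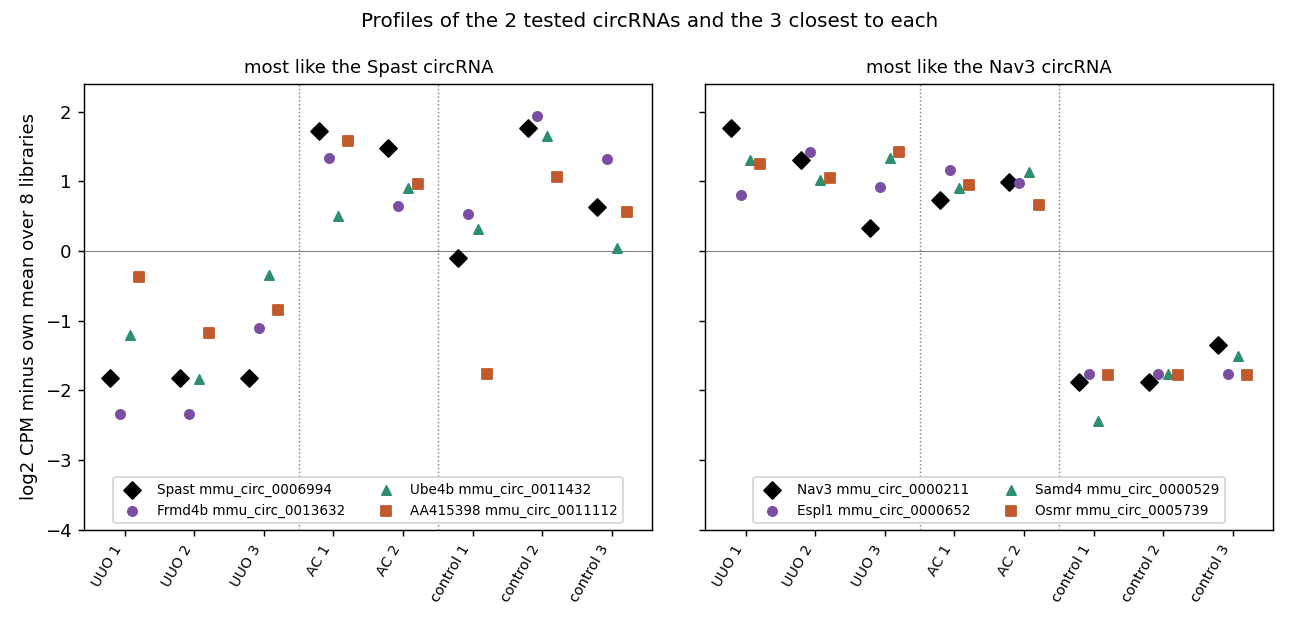
Log2 CPM minus each circRNA's own mean over 8 libraries (y axis), by library (x axis, UUO, AC and control separated by dotted lines), for the tested Spast and Nav3 circRNAs (black diamonds) and the 3 closest to each. The Spast panel is low in UUO and the Nav3 panel is low in control; the differences from the black profile are 0.59 to 0.94 on the left and 0.46 to 0.49 on the right.

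Other genes of the microtubule system were read from a list of 172 symbols, older synonyms included, of severing enzymes, navigators, plus-end and lattice binding proteins, tubulins, tubulin-modifying enzymes and shapers of the endoplasmic reticulum. Of these, 39 had a listed circRNA, and 23 circRNAs of 17 hosts were tested. In edgeR 0 of the 23 passed in UUO against control, in AC against control or in UUO against AC, where 4.35%, 3.33% and 0% of all circRNAs passed. At an unadjusted edgeR p under 0.05 there were 4, 4 and 1 of the 23, against 228, 207 and 82 of all 1471. Those against control went both ways. Circular RNAs of Mtap1s and Clasp2 were higher and that of Tbcel mmu_circ_0015584 lower in both injuries, and that of Macf1 was lower in AC. By limma-voom 0 passed in each comparison. DESeq2 called 2 as higher in UUO against control, of Mtap1s and Clasp2, where it called 59 of all 1471 as higher. In AC against control and in UUO against AC it called 0 of the 23, against 62 and 2 of all circRNAs.

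The median log2 fold change of the 23 was -0.24 in UUO against control and 0.032 in UUO against AC, against 0.016 and 0.055 over all tested. In AC against control it was -0.18, against -0.015 over all tested, and 0 when the 4 circRNAs with a group at 0 counts were set to their bound for counting error. Positive values numbered 10, 11 and 12 of 23 in UUO against control, AC against control and UUO against AC.

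Closest to Spast by function were the severing enzymes and related ATPases, of which Katnal1 alone had listed circRNAs. Katnal1 encodes a katanin catalytic subunit. Its circRNA mmu_circ_0001432 had 13, 51 and 18 counts in UUO, 15 and 16 in AC, and 35, 31 and 40 in control. Both AC libraries were below all controls, and AC and control libraries did not overlap for 30.7% of all circRNAs tested. UUO replicate 2 was above the controls in counts. It did not pass in UUO against control (log2 fold change -0.29, SE 0.45, edgeR adjusted p = 0.806) or in AC against control (log2 fold change -0.93, SE 0.54, edgeR adjusted p = 0.502). The other 2 Katnal1 circRNAs, with 44 and 3 counts in all, were not tested.

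Closest to Nav3 was its paralogue Nav2, also a navigator, with 2 listed circRNAs and too few counts for a test. The Nav2 circRNA mmu_circ_0014243 had 0 counts in each UUO library, 0 and 2 in AC, and 2, 0 and 4 in control. The Nav2 circRNA mmu_circ_0014245 had 0 counts in each UUO library, 0 and 3 in AC, and 1, 2 and 0 in control. With 8 and 6 counts in all, their absence from UUO was not informative at this depth.

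Other list members with groups at 0 counts were picked out after their values had been seen. Each circRNA named here passed the filter on low counts only through groups in which it was high. A difference from the low groups was thus built into the selection, and the adjusted p-values below are a description. The Mtap1s circRNA mmu_circ_0014943, of a microtubule-associated protein, had 9, 6 and 3 counts in UUO, 13 and 10 in AC and 0 in each control. Unlike Nav3 it was higher in both AC libraries than in any UUO library. The UUO and AC libraries did not overlap for 24.3% of all circRNAs tested. The Mtap1s circRNA did not pass (edgeR adjusted p = 0.123 in UUO and 0.0888 in AC against control; DESeq2 called it in UUO). Clasp2 encodes a protein that stabilises microtubule plus ends. Its circRNA mmu_circ_0001850 had 20, 10 and 17 counts in UUO, 0 and 0 in AC, and 3, 0 and 1 in control. Its circRNA mmu_circ_0015332 had 19, 10 and 0 counts in UUO, 11 and 16 in AC, and 0 in each control. Both AC libraries were thus at 0 for mmu_circ_0001850 and above 0 for mmu_circ_0015332, and neither circRNA passed in UUO against AC (edgeR adjusted p = 0.816 and 0.991). The Macf1 circRNA mmu_circ_0001258 was also at 0 in both AC libraries, with 0, 0 and 18 counts in UUO and 0, 17 and 23 in control. It did not pass in AC against control (edgeR adjusted p = 0.301) or in UUO against AC (edgeR adjusted p = 0.857).

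**Figure D4:**
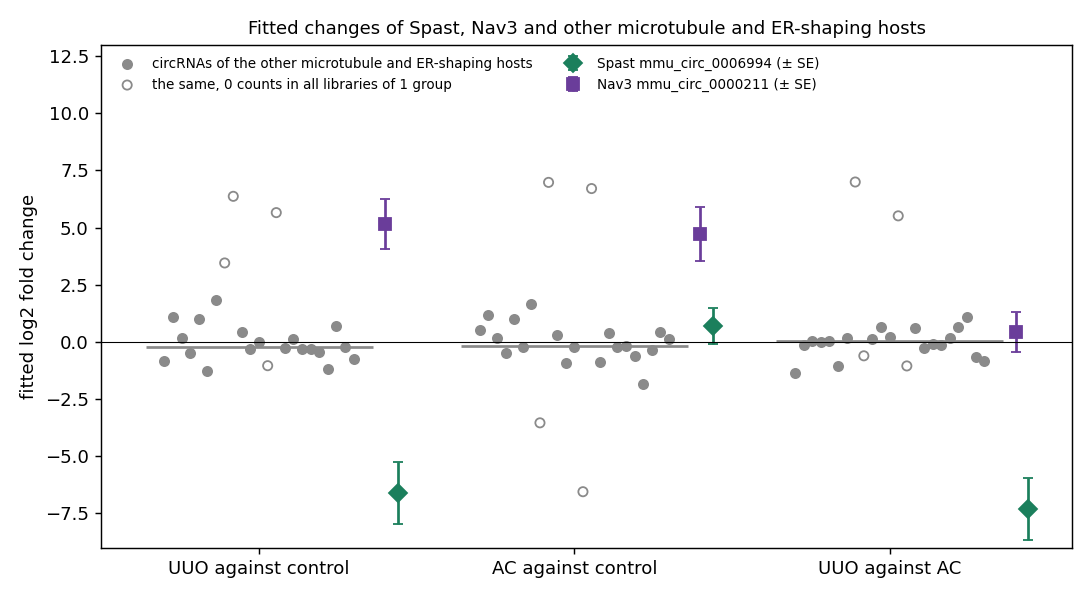
Fitted log2 fold change (y axis) in each comparison for the 23 other tested circRNAs of the microtubule and endoplasmic reticulum list (grey, with their median as a line; open where a group had 0 counts in all its libraries) and for the tested Spast and Nav3 circRNAs (± SE). The grey medians are -0.24, -0.18 and 0.032; the fitted size of any circRNA with a group at 0 counts depends on the prior count, so those points show a direction and no bound.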

How the data were processed

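The labels place 8 libraries in 3 groups. The authors deposited a table of whole-number counts per circRNA and library, without normalization, and a signal table. Judging by the values, the deposited signal is the count over a single constant of its library, 8718 to 11941 (100% whole within 0.01 when multiplied back); what the constant stands for is unknown. HISAT2, StringTie and mm9 are listed, without role or version, per the submitters' processing notes. Which tool called circular junctions, and with what minimum of reads, is not stated. The reference annotation is of another build and served only to look up the 4 source transcripts, so no coordinates or sequences are printed.

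Counts were tested with edgeR 4.0.16 in R 4.3.3 (quasi-likelihood, TMM, default filter, all 8 libraries in 1 fit of 3 groups, Benjamini-Hochberg over 1471 circRNAs), and within hosts with its test of differential splicing. Alternatives used DESeq2 1.42.0, limma 3.58.1, no filter, other scaling and each library left out. Standard errors were derived from the log2 fold change and the F statistic. Total counts were 40865 to 65145 per library; intervals and limits cover counting error only. Libraries of 1 group differed by more than counting noise (chi-square per degree of freedom 2.91 to 5.58). The p-values reflect spread among libraries alone, and it may be technical. The scripts were tested on simulated data.

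The hosts and lists were chosen with earlier results of these data known. All rows of Spast and Nav3 are named, then the 3 most similar profiles of each tested circRNA, list members past the threshold (there were 0 in edgeR) and the severing and navigator genes; others are said to have been chosen after their values were seen.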

Additional observations from a re-analysis of the deposited data

How the results depend on the processing

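The Spast and Nav3 log2 fold changes kept their sign in every setting that gave a value; with UUO and control alone, neither circRNA passed the filter. For Spast mmu_circ_0006994 the fitted value in UUO against AC lay between -7.45 and -5.33. Its adjusted p passed in 2 of 7 settings (no filter and DESeq2), and did not pass with any UUO or control library left out. As this contrast uses the UUO libraries that led to the choice of Spast, that tally is a description and not independent evidence. For Nav3 in UUO against AC the fitted value lay between 0.036 and 0.78. In AC against control DESeq2 gave neither circRNA an adjusted p.

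The number of circRNAs called in UUO against control (64) was 103 in DESeq2, 37 with the deposited constant as library size, and 10 to 75 with a library left out. In AC against control (49) it was 29 with the constant, 14 with these groups alone, and 11 to 38 with a library left out. In UUO against AC (0) it was 4 without a filter, 2 in DESeq2, 1 with these groups alone, and 0 to 1 with a library left out. The tests within hosts called 0, 1 and 1; limma-voom gave 0 in each, and leaving out a library gave 0 to 0, 0 to 1 and 0 to 1. The cause of these moves was not tested, and a lone AC library was taken to vary as the other groups do. With the constant, 11 of 37 calls were higher in UUO and 7 of 29 in AC, against 42 of 64 and 28 of 49 with TMM; the median of all circRNAs moved to -0.26 and -0.34.

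Same-numbered libraries did not deviate together (correlations -0.113 to 0.042), so the numbers are not taken as pairs. With the replicate number as a block, 12, 5 and 0 circRNAs were called in UUO against control, AC against control and UUO against AC, and the tests within hosts called 0, 1 and 1. Few counts limit what can be said of 4 of the 6 circRNAs.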
